A study of Homo sapiens with 4 samples.

Results

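The genes examined here encode the cellular proteins that the degrader dTAG-13 binds or recruits, with the related proteins that such ligands can reach. They are 9 of the 19901 protein-coding genes in the count table and were picked by symbol, with earlier results of these data known. CRBN, DDB1, CUL4A and RBX1 form the cereblon ubiquitin ligase, FKBP1A, FKBP4 and FKBP5 are FK506-binding proteins, and GSPT1 and CSNK1A1 are proteins that cereblon can be made to degrade. All 4 libraries come from HCT116 colon cancer cells of the genotype KAP1_dTAG_CloneD5, a single clone whose endogenous KAP1 carries a degron derived from FKBP12. DMSO and dTAG cells thus share the tagged KAP1 and the inserted cassette, and they differ in treatment for 8 h with vehicle or with 500 nM dTAG-13, in homeostatic conditions. New RNA was labeled with 500 μM 4-thiouridine (4sU) for 10 min and sequenced by Transient Transcriptome-Sequencing (TT-Seq), with 2 biological replicates per condition.

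dTAG-13 has a ligand for the FKBP12 degron at its one end and a thalidomide-type ligand for cereblon at its other end. Cereblon is the substrate receptor of a cullin-RING ligase, in which DDB1 is the adaptor, CUL4A the scaffold and RBX1 the RING subunit that brings the ubiquitin-charged enzyme. When the compound bridges the degron and cereblon, the tagged protein is ubiquitinated and passed to the proteasome. All of this takes place among proteins. TT-Seq reads the synthesis of RNA, so the values below describe transcription of these genes and not the amount or activity of the ligase. The paper reports that KAP1 protein is depleted by this treatment. No library is of untagged cells given the compound. A change in dTAG cells can thus mix effects of the compound with those of KAP1 loss, and their separate effects were not tested.

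Counts on protein-coding genes lay between 93105627 and 102314741 per library. The 6 epithelial markers examined (EPCAM, CDH1, KRT8, KRT18, KRT19 and CLDN4) had from 4737 to 43667 counts, whereas 6 of 7 markers of blood, fibroblast, endothelial and liver cells were under 50 counts in at least 1 library and the highest count of any of the 7 was 538. A gene was tested if no library had under 50 counts on it, which held for 12612 genes. The test was the two-sided quasi-likelihood test of edgeR, p-values were adjusted over these genes after Benjamini-Hochberg, and an adjusted p under 0.05 is a call. All replicates are of 1 clone, so the tests measure the spread between its samples. CPM are counts scaled to a common library size with TMM factors, and log2 fold changes are dTAG over DMSO. They are relative to the bulk of genes, whose median was -0.015 with TMM and 0.63 if library sizes were taken from ERCC totals. TRIM28, which encodes KAP1, stood at 61.7 and 69.8 CPM with DMSO and at 53.5 and 47.9 CPM with dTAG. It was called lower, at -0.37 on the log2 scale (quasi-likelihood adjusted p = 0.019 in edgeR), and stood at -0.10 and was not called with the GC and length trends removed. Its RNA is no measure of the treatment, which is directed at KAP1 protein.

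FKBP1A (ENSG00000088832.16, chromosome 20 of hg38 from 1368978 to 1393172, minus strand; all positions are of hg38) encodes FKBP12, the protein from which the degron on KAP1 was made. It was listed with 0 and 5 counts with DMSO and with 0 counts in both dTAG libraries. It did not reach the count minimum and was the only 1 of the 9 genes left untested. These values cannot be read as the transcription of FKBP1A. A gene listed as ENSG00000274322 on the same strand covered 99.7% of the counted FKBP1A interval and left 76 bases, at its 5′ end, to FKBP1A alone. Those bases are shown because they are the only sequence in which a read belonged to FKBP1A and to no other gene in the table. They are the capitals in the following 250 bases before the RefSeq start of the gene (GRCh38.p14, chr20:1393055-1393304, minus strand), read 5′ to 3′.
FKBP1A: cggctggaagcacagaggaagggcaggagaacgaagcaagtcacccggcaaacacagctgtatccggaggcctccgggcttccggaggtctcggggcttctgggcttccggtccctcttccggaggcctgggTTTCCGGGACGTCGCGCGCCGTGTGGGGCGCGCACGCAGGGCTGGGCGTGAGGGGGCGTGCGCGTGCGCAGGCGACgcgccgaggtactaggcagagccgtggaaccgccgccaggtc
The capitals lie upstream of the RefSeq start, ending 43 bases before it, and 78.9% of them are G or C.

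The whole table showed the same relation. Of the 489 genes whose interval lay entirely inside genes of the same strand, 475 (97.1%) had 0 counts in every library, and none had 50 counts in all 4. Of the 581 genes that lay entirely inside genes of the opposite strand, 19.3% had 0 counts in every library and 41.1% had at least 50 in all. Among the 13347 genes without overlap, 11.8% had 0 counts throughout. This is the pattern of a count that uses strand and leaves out reads lying in overlapping genes of 1 strand, and the methods state neither setting. ENSG00000274322 itself held 1955, 1987, 2138 and 1939 counts in DMSO replicates 1 and 2 and dTAG replicates 1 and 2. Of its interval, 47.4% was shared on the same strand with SDCBP2 and FKBP1A together. The log2 fold change of ENSG00000274322 was 0.11 (standard error 0.11, quasi-likelihood adjusted p = 0.53 in edgeR).

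**Figure D1:**
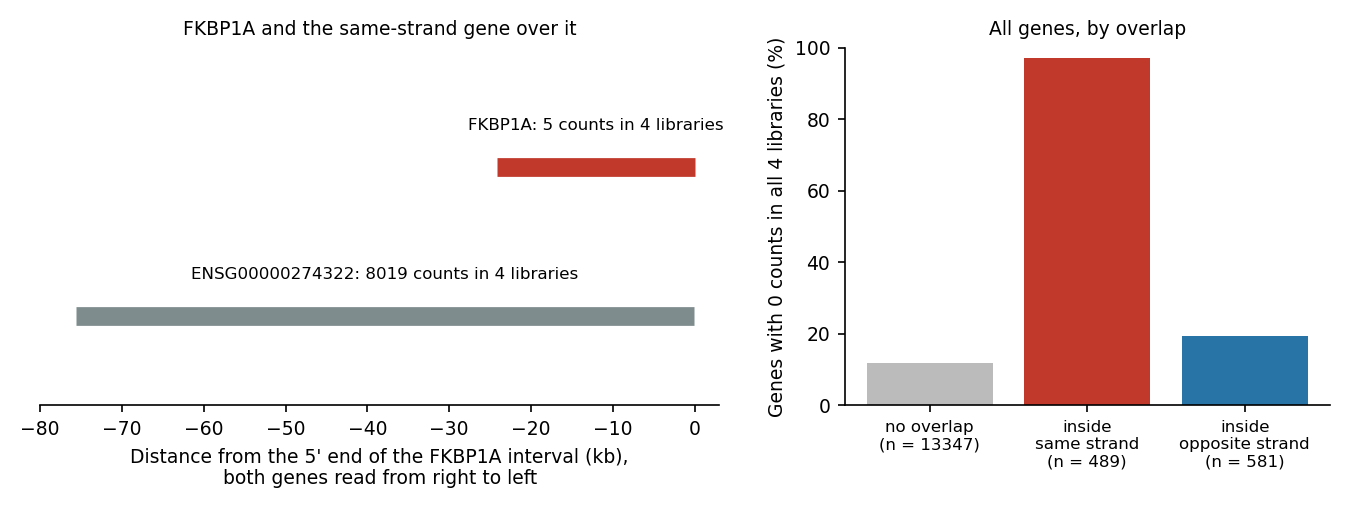
Left, the counted intervals of FKBP1A (red) and of ENSG00000274322 (grey) by distance in kb from the 5′ end of FKBP1A, with the counts summed over 4 libraries. Right, the share of genes with 0 counts in all libraries, by overlap: 11.8% without overlap, 97.1% inside genes of the same strand and 19.3% inside genes of the opposite strand.

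The 4 ligase genes were transcribed in both conditions, and 0 of them were called by edgeR or by DESeq2, with 1 at an unadjusted p under 0.05 in edgeR. Their log2 fold changes lay between 0.005 and 0.18. Among all tested genes 7.10% were called in either direction, 3.44% were called higher and 26.6% had an unadjusted p under 0.05. These are 434 genes called higher and 461 called lower, and the split came to 255 and 869 with upper-quartile normalization, to 797 and 525 with the ERCC factor as a covariate, to 635 and 418 with the length trend removed and to 1341 and 940 with the GC and length trends removed.

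CRBN (ENSG00000113851.14, chromosome 3 from 3144628 to 3179727) encodes the receptor to which dTAG-13 binds. It had 37.3 and 34.1 CPM with DMSO and 36.8 and 39.1 CPM with dTAG. The dTAG values overlapped the DMSO values. The log2 fold change was 0.088 (standard error 0.096, 95% interval -0.11 to 0.29, quasi-likelihood adjusted p = 0.57 in edgeR). In percent of the DMSO level the interval runs from -7.49% to 22.1%, and changes within that range are not excluded. The 3 tested genes with the nearest pattern over the 4 libraries were LIN7C, HERC2 and PNISR, with root mean square differences of log2 CPM (each gene centred on its mean) of 0.0045, 0.0055 and 0.0058. CRBN shares 6253 bases with TRNT1 on the opposite strand.

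DDB1 (ENSG00000167986.13, chromosome 11 from 61299451 to 61342596) encodes the adaptor that joins cereblon and other receptors to the cullin. It had 138 and 128 CPM with DMSO and 132 and 135 CPM with dTAG. Both dTAG libraries lay between the DMSO libraries. Its log2 fold change of 0.005 (standard error 0.084, 95% interval -0.17 to 0.18) was the nearest to 0 of the tested genes described here.

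CUL4A (ENSG00000139842.14, chromosome 13 from 113208193 to 113267108) encodes the scaffold. Its levels were 113 and 108 CPM with DMSO and 123 and 127 CPM with dTAG. The groups did not overlap, as was the case for 58.8% of all tested genes. CUL4A had a log2 fold change of 0.18 (standard error 0.083, unadjusted p = 0.046, quasi-likelihood adjusted p = 0.18 in edgeR). An unadjusted p under 0.05 was reached by 26.6% of the tested genes. The paralog CUL4B, which can replace CUL4A in the ligase, had 5443 and 4289 counts with DMSO and 5378 and 4631 with dTAG, a log2 fold change of 0.10 (quasi-likelihood adjusted p = 0.55 in edgeR).

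RBX1 (ENSG00000100387.8, chromosome 22 from 40951347 to 40973309) encodes the RING subunit. It had 44.9 and 44.8 CPM with DMSO and 49.1 and 50.8 CPM with dTAG. Here too the groups did not overlap. RBX1 had a log2 fold change of 0.15 (standard error 0.088, quasi-likelihood adjusted p = 0.26 in edgeR).

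**Figure D2:**
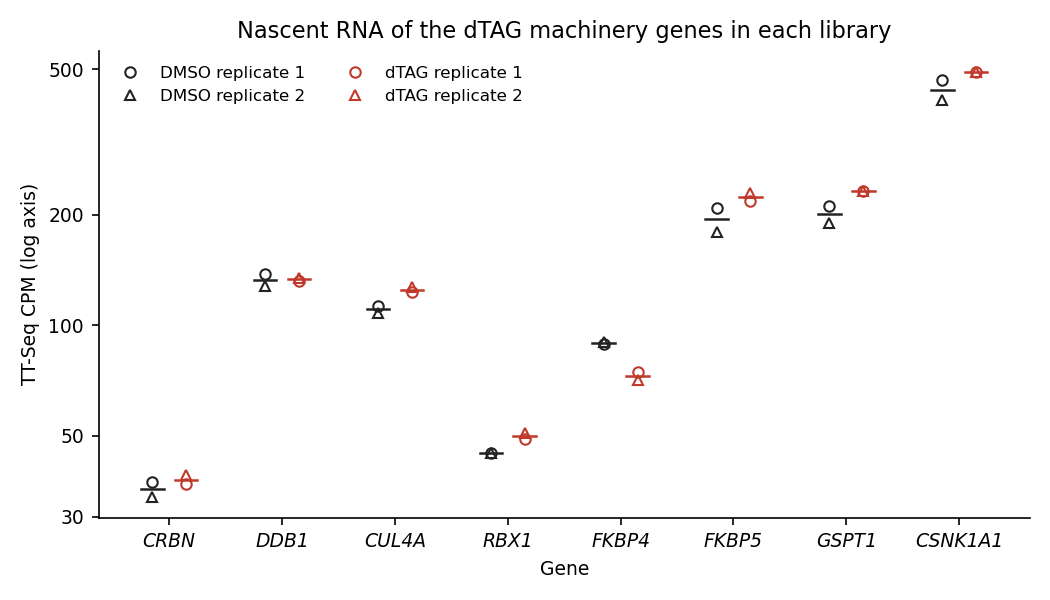
CPM (log axis) of the 8 tested genes in each library, DMSO in black and dTAG in red, with circles for replicate 1, triangles for replicate 2 and lines for the mean of 2. FKBP4 is the only gene with both dTAG libraries below both DMSO libraries, at 74.7 and 70.9 CPM against 88.7 and 89.9 CPM.

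FKBP4 was the only called gene of the 8 tested, and it was lower with dTAG. The gene (ENSG00000004478.7, chromosome 12 from 2794953 to 2805423) encodes FKBP52, a co-chaperone that works with HSP90 on steroid receptors and has a domain related to FKBP12. Its counts were 8783 and 8965 with DMSO and 7476 and 6394 with dTAG. In CPM, the level was 89.3 ± 0.834 (SD, n = 2) in DMSO cells, against 72.8 ± 2.68 (SD, n = 2) in dTAG cells. The groups did not overlap, and among all tested genes 30.7% had both dTAG libraries below both DMSO libraries. The log2 fold change was -0.30 (standard error 0.083, 95% interval -0.47 to -0.12, quasi-likelihood adjusted p = 0.036 in edgeR). This is a level 0.815 times that of DMSO. A call with a change of at least 1.5-fold, which FKBP4 does not reach, was made for 1.64% of the tested genes. With 3.66% of all tested genes called lower, 1 called gene of 8 cannot be set apart from the background. The genes nearest in pattern over the 4 libraries were ZNF518B, AGBL5 and VAMP8, with root mean square differences of 0.0021, 0.008 and 0.0085.

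FKBP4 is also the shortest of the 8 tested members (10.5 kb, against a median of 36.1 kb for all tested genes). It is the richest of the 8 in GC (51.6%, against 44.9%). Across all tested genes the log2 fold change rose with gene length (Spearman's rho 0.42) and fell with GC content (rho -0.56), and genes are not independent replicates. After each library's trend on length was removed, the log2 fold change of FKBP4 was -0.16 (quasi-likelihood adjusted p = 0.19 in edgeR). After trends on GC content and length were removed, it was -0.14 (95% interval -0.26 to -0.029, quasi-likelihood adjusted p = 0.079 in edgeR). Without dTAG replicate 1 or without dTAG replicate 2, the log2 fold change was -0.33 or -0.26. Without DMSO replicate 1 or without DMSO replicate 2, it was -0.30 or -0.29. Each of these fits left a lone library in a group, which has no spread of its own, so only the estimates are given.

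**Figure D3:**
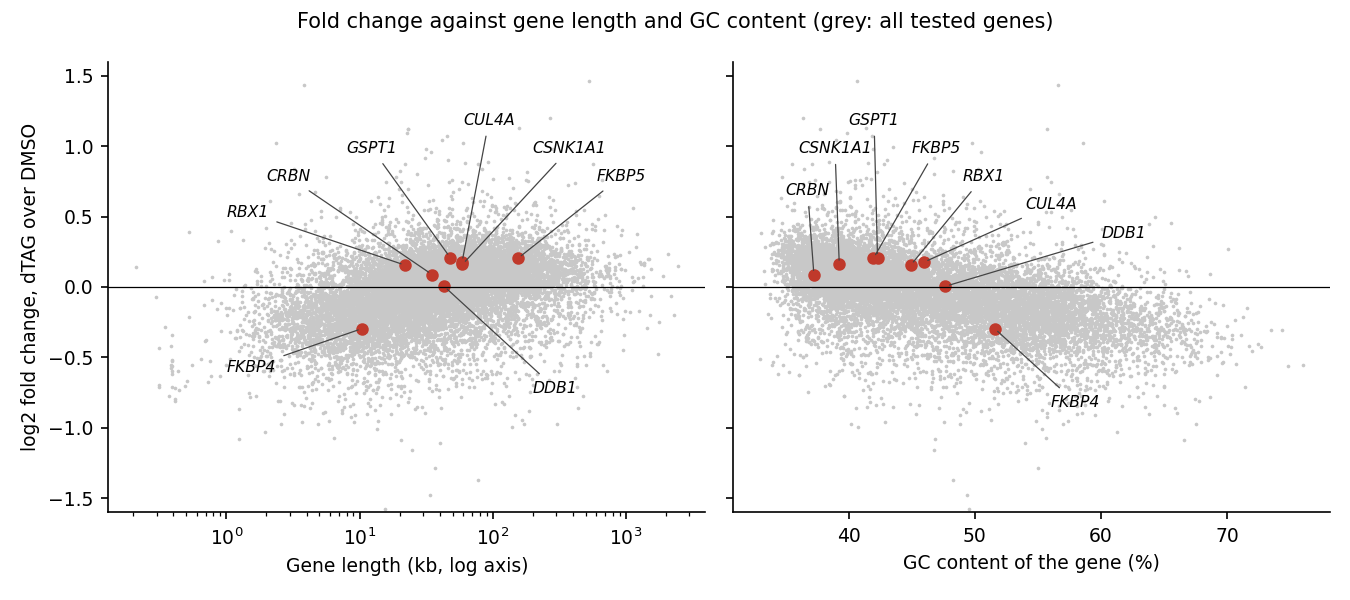
Log2 fold change (dTAG over DMSO) of all 12612 tested genes in grey and of the 8 tested genes described here in red, against gene length in kb (log axis, left) and GC content in percent (right). FKBP4, at 10.5 kb and 51.6% GC, lies toward short and GC-rich genes, and over all genes Spearman's rho was 0.42 for length and -0.56 for GC content.

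FKBP5 (ENSG00000096060.14, chromosome 6 from 35573585 to 35728583) encodes FKBP51, another co-chaperone of HSP90, which restrains the glucocorticoid receptor and whose gene is in turn induced by glucocorticoids. It had 209 and 180 CPM with DMSO and 219 and 229 CPM with dTAG. The dTAG libraries were the higher ones, yet the DMSO replicates differed from each other by more than the nearest libraries of the 2 groups did. For FKBP5 the log2 fold change came to 0.20 (standard error 0.094, 95% interval 0.0089 to 0.40, quasi-likelihood adjusted p = 0.17 in edgeR). With the ERCC factor as a covariate it was 0.02. FKBP4 and FKBP5 thus had estimates of opposite sign, -0.30 and 0.20, and the difference between them was not tested.

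Some thalidomide-type ligands turn cereblon onto new proteins, called neosubstrates. GSPT1 (ENSG00000103342.12, chromosome 16 from 11868128 to 11916082) encodes the release factor eRF3a, which ends translation. It had 212 and 190 CPM with DMSO and 233 and 232 CPM with dTAG, and the groups did not overlap. The log2 fold change was 0.21 (standard error 0.090, 95% interval 0.021 to 0.40, unadjusted p = 0.031, quasi-likelihood adjusted p = 0.15 in edgeR). This was the highest estimate of the 8 genes, at the 87.6th percentile of the log2 fold changes of all tested genes. GSPT2, an intronless copy of GSPT1, had 0, 0, 0 and 3 counts and was not tested.

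CSNK1A1 (ENSG00000113712.17, chromosome 5 from 149492197 to 149551552) encodes casein kinase 1 alpha, which primes beta-catenin for destruction. It had 467 and 411 CPM with DMSO and 490 and 491 CPM with dTAG. DMSO replicate 2 was the lowest library here, as it was for FKBP5, GSPT1, CRBN, DDB1 and CUL4A. It was also the lowest for RBX1, though only narrowly (44.8 against 44.9 CPM). For FKBP4 it was the highest. For CSNK1A1 the log2 fold change came to 0.16 (standard error 0.10, quasi-likelihood adjusted p = 0.31 in edgeR). Without DMSO replicate 1, DMSO was represented by replicate 2 alone. The log2 fold changes were then 0.25 for CSNK1A1, 0.32 for FKBP5, 0.29 for GSPT1 and 0.21 for CUL4A. That fit left a lone DMSO library, which has no spread of its own, so only the estimates are given. With the ERCC factor as a covariate, CSNK1A1 stood at 0.026 and GSPT1 at 0.095. That factor was 0.804 in DMSO replicate 2. It was -0.0469 in DMSO replicate 1 and -0.197 and -0.56 in dTAG replicates 1 and 2, so it mostly sets DMSO replicate 2 apart. With that factor as a covariate, 1322 of all genes were called, against 895 without it.

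**Figure D4:**
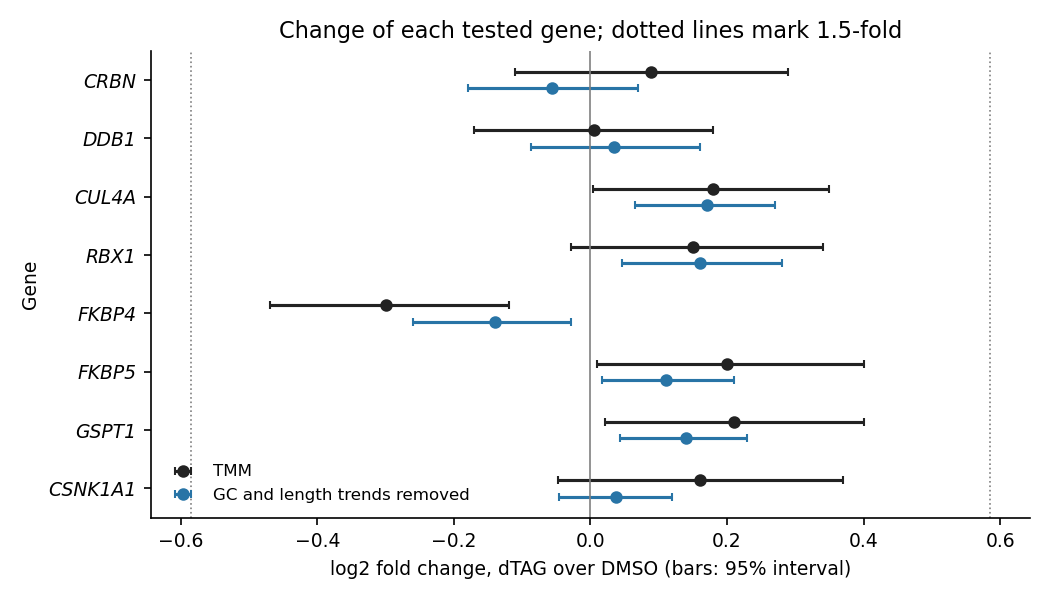
Log2 fold change (dTAG over DMSO) with its 95% interval for the 8 tested genes, with TMM normalization (black) and after removal of each library's trends on GC content and length (blue). Every interval lies inside the dotted lines at 1.5-fold, and the TMM estimates run from -0.30 for FKBP4 to 0.21 for GSPT1.

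Of the 8 tested genes, 5 had both dTAG libraries above both DMSO libraries (CUL4A, RBX1, FKBP5, GSPT1 and CSNK1A1), 1 had both below (FKBP4) and 2 overlapped (CRBN and DDB1). Among all tested genes, 28.1% had both dTAG libraries higher. The median log2 fold change of the 8 genes was 0.16. After removal of the trends on GC content and length, CUL4A stood at 0.17 and GSPT1 at 0.14, with quasi-likelihood adjusted p-values of 0.028 and 0.043 in edgeR, while CRBN stood at -0.056 and CSNK1A1 at 0.038. The 2 called genes of that setting compare with 2281 called among all tested genes.

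The 8 genes differed more in their level of transcription than in their response. Per kilobase of gene, CSNK1A1 and FKBP4 were highest, with means over the 4 libraries of 7.83 and 7.74 CPM per kilobase, and their library values overlapped. GSPT1 followed at 4.53 and DDB1 at 3.09 CPM per kilobase, each apart from its neighbours. RBX1 and CUL4A, at 2.16 and 1.99 CPM per kilobase, overlapped each other. FKBP5 (1.35) and CRBN (1.05 CPM per kilobase) were the lowest and were apart. The receptor CRBN was thus transcribed at a lower level per kilobase than each of its ligase partners, in every library. With DMSO, CRBN stood at the 46.6th percentile of the tested genes, DDB1 at the 81.6th, RBX1 at the 70th, CUL4A at the 67.2nd and FKBP4 at the 95th. Reads over introns and exons were counted alike.

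Other genes of the pathway were taken from 9 lists by role, with 115 genes in all. Of these, 98 were tested, 2 were called higher and 5 were called lower, together 7.14%, which is close to the 7.10% of all tested genes. None of the 7 reached 1.5-fold. With all libraries, DESeq2 called 11 of the 98 list genes, beside 1252 of the 12612 tested genes, so its further calls are not set apart from the background. Of the 17 untested genes, 7 had at least 95% of their interval inside genes of the same strand, as FKBP1A did: NEDD8, DCUN1D3, FKBP1B, FKBP11, ZFP91, ZNF653 and PELO. NEDD8, the modifier that activates cullins, had 14 to 45 counts, and ZFP91, a neosubstrate of thalidomide analogs, had 0 to 3.

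Among 16 genes for assembly and neddylation of CUL4 ligases, 14 were tested and had a median of 0.08 on the log2 scale. DCUN1D5, which helps to attach NEDD8 to cullins, rose from 90.2 and 80.7 CPM to 107 and 112 CPM. Its log2 fold change was 0.36 (standard error 0.086, quasi-likelihood adjusted p = 0.015 in edgeR). With the GC and length trends removed DCUN1D5 stood at 0.20 and was still called. The other 13 were not called, among them CAND1 (0.074), which exchanges receptors on cullins, and UBE2M (-0.15), the E2 enzyme for NEDD8. The COP9 signalosome removes NEDD8 from cullins. Of its 10 tested subunit genes, GPS1 fell, with 3966 and 3920 counts with DMSO and 3071 and 2647 with dTAG, and the other 9 were not called by edgeR. DESeq2 called COPS2 as well, whose log2 fold change in edgeR was 0.32 (quasi-likelihood adjusted p = 0.054). The log2 fold change of GPS1 was -0.40, and it was -0.042 and not called after removal of the GC and length trends.

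DDB1 serves many receptors besides cereblon. Of 20 such genes, all tested, edgeR called DDB2 alone and DESeq2 called DDB2 and DTL. DDB2 encodes the receptor that recognizes UV damage in DNA and is a known target of p53. DDB2 fell from 57.2 and 63.5 CPM to 43.3 and 42.3 CPM, a log2 fold change of -0.49 (standard error 0.090, quasi-likelihood adjusted p = 0.0021 in edgeR). The median of the 20 receptors was 0.046.

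Of 14 other genes of the FKBP family, 10 were tested and had a median of -0.095 on the log2 scale. FKBP8, which encodes a membrane-anchored member of mitochondria, was called. It fell from 66.2 and 69.7 CPM to 54.3 and 49.7 CPM, a log2 fold change of -0.39 (standard error 0.087, quasi-likelihood adjusted p = 0.011 in edgeR). Like FKBP4, FKBP8 is short (12.3 kb) and rich in GC (56.6%), and with the GC and length trends removed it stood at -0.17 and was not called. FKBP1B, the closest paralog of FKBP1A, had 25 to 36 counts and 97.4% of its interval inside a gene of the same strand.

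Of the 14 tested genes for other neosubstrates, 0 were called by edgeR or DESeq2, and their median was 0.024, with values from -0.27 for PATZ1 to 0.25 for SALL4. IKZF1 and IKZF3, the lymphoid neosubstrates of lenalidomide, were under the count minimum, as were ZBTB16 and TP63. At an unadjusted p under 0.05 in edgeR, 1 of the 14 passed, beside 26.6% of all tested genes. The genes for ubiquitin and its E1 enzymes had a median of -0.20. UBB, a ubiquitin gene, was called and fell from 108 and 106 CPM to 84.2 and 79.9 CPM (log2 fold change -0.39, quasi-likelihood adjusted p = 0.0071 in edgeR). It consists of near-identical repeats, so its counts are uncertain, and with the length trend removed it stood at -0.12 and was not called. With the GC and length trends removed UBB was called, at -0.22 (quasi-likelihood adjusted p = 0.01 in edgeR). UBA6, an E1 enzyme, had a log2 fold change of 0.27 and was not called.

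Among the partners of GSPT1, 0 of 4 tested genes were called by edgeR, and DESeq2 called ETF1. An unadjusted p under 0.05 in edgeR was reached by 2 of the 4, beside 26.6% of all tested genes. ETF1, which encodes the GSPT1 partner eRF1, had a log2 fold change of 0.28 (quasi-likelihood adjusted p = 0.061 in edgeR). In the casein kinase 1 family and the beta-catenin destruction complex, 2 of 11 tested genes were called, beside 7.10% of all tested genes. CSNK1G3 rose by 0.37 and AXIN2, a negative feedback gene of Wnt signaling, fell by 0.49 on the log2 scale. CSNK1G3 stood at 0.07 and was not called with the ERCC factor as a covariate, and at 0.21 without DMSO replicate 2. With the GC and length trends removed it stood at 0.15 and was still called. Without 1 library its log2 fold change ranged from 0.21 to 0.55. Of AXIN2, 71.2% of the interval is shared on the same strand. The closest paralogs of CSNK1A1 did not pass, with log2 fold changes of 0.054 for CSNK1D and 0.029 for CSNK1E, of whose interval 95.5% is shared on the same strand. CSNK1A1L, with 19 to 54 counts, was not tested. Of the steroid receptor partners and glucocorticoid targets that relate to FKBP4 and FKBP5, 0 of 9 tested genes were called by edgeR. An unadjusted p under 0.05 was reached by 2 of the 9, beside 26.6% of all tested genes, and DESeq2 called TSC22D3. The 2 genes were the glucocorticoid targets TSC22D3, with a log2 fold change of 0.46 (standard error 0.15), and KLF9, with -0.27 (standard error 0.11). The glucocorticoid targets SGK1 and PER1 did not reach that level. SGK1 had -0.46 with a standard error of 0.24, from 107 to 177 counts per library. PER1 had -0.10 (standard error 0.10). The receptor gene NR3C1 had 0.15 and the chaperone genes HSP90AA1 and HSP90AB1 had -0.03 and -0.056.

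**Figure D5:**
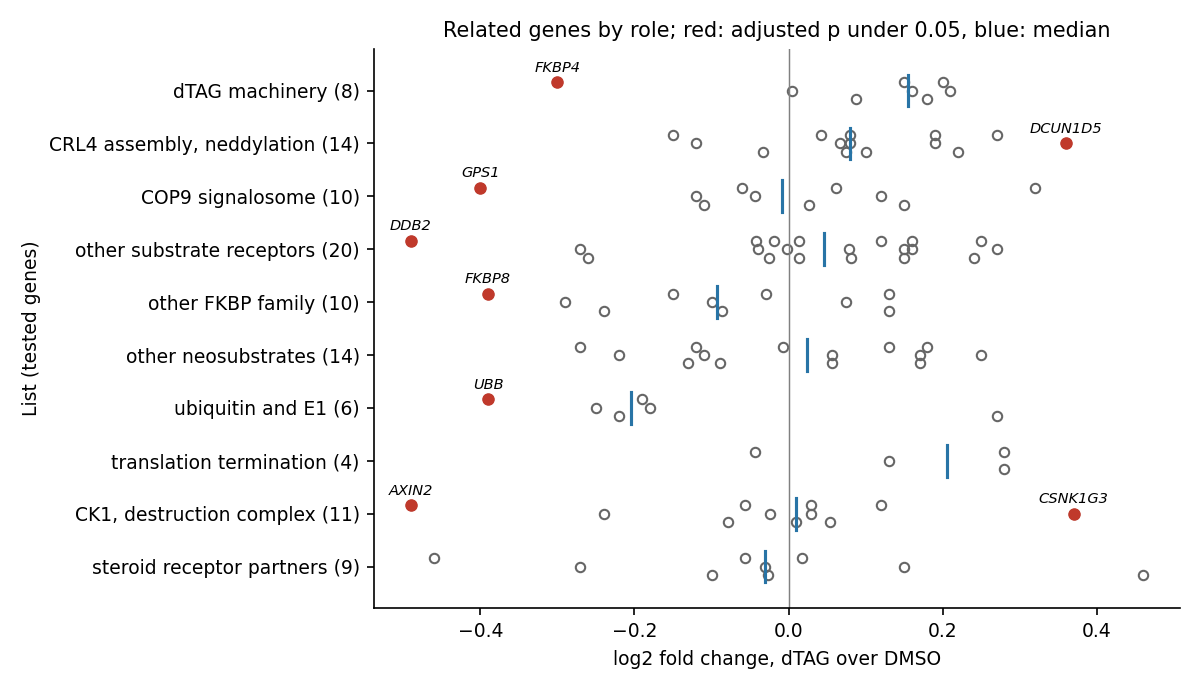
Log2 fold change (dTAG over DMSO) of each tested gene, by list, with the number tested in parentheses. Filled red points had an adjusted p under 0.05 and are named, and blue lines mark the median of each list, from -0.20 for ubiquitin and its E1 enzymes to 0.21 for translation termination.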

How the data were processed

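TT-Seq was measured in 4 libraries of HCT116 cells, 2 with DMSO and 2 with dTAG. Per the labels and the methods, trim galore 0.6.4 and STAR were used to trim reads and map them to hg38, and featureCounts of Subread 1.6.3 summed reads over whole protein-coding genes. The values the authors deposited are raw counts per gene and per ERCC spike-in RNA, with no normalization. How strand and overlapping genes were handled, and the annotation version, are not given in the sources used here. Of 19901 rows for genes, 19802 had a symbol by identifier. Starts in the table count from 0 and are printed with 1 added. No column of sample values was left out.

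Fold changes were fitted with edgeR 4.0.16 in R 4.3.3 (TMM, quasi-likelihood F test, minimum of 50 counts in all libraries, 1 term for dTAG) and, as an alternative, DESeq2 1.42.0. TMM took the place of the authors' spike-in normalization, whose settings are not fully given. Other alternatives were upper-quartile and ERCC scaling, a likelihood ratio test, other count filters, removal of GC and length trends by lowess (span 0.3), a replicate block and leaving out each library. Intervals are 95%. On simulated counts for the 12612 tested genes, 98% of 2-fold and 84% of 1.5-fold changes were recovered and 2.15% of calls were false. The simulated counts held no trend on GC content or length, so these rates cannot be carried over to the measured libraries. Changes as small as those of the members were not simulated. The 8 tested members had from 3397 to 49096 counts per library. The members, lists and named genes were chosen with earlier results of these data known. Named genes are the 9 members, TRIM28, the paralogs, called list genes (up to 3 per direction) and the 3 nearest patterns to CRBN, FKBP1A (untested, so none) and the gene with the lowest p. Others named from the lists were chosen after their values were seen. Not every gene of the lists is reported by name.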

Additional observations from a re-analysis of the deposited data

How the results depend on the processing

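With 2 replicates per condition, the calls depend on the settings. With all libraries, the alternatives called from 0 (library sizes from ERCC totals) to 3190 genes (crossed replicate block), beside 1593 with the likelihood ratio test, 1417 with no filter on low counts, 2281 with GC and length trends removed, 340 with the replicate block and 2643 with the block and both trends removed. Leaving out 1 library gave 68 to 5489. Among the 9 genes, 0 were called with ERCC totals, with the length trend removed and with the replicate block, 2 with both trends removed, 3 with the crossed block, 4 with the block and both trends removed, and 0 to 5 without 1 library. Among the list genes, the calls came to 11 with DESeq2, 0 with ERCC totals, 14 with the ERCC factor, 13 with the likelihood ratio test, 12 with no filter, 17 with both trends removed, 4 with the replicate block, 20 with the block and both trends removed, 26 with the crossed block and 0 to 45 without 1 library.

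ERCC counts were 25165 in DMSO replicate 2 and from 9551 to 14798 in the other libraries. With ERCC totals as library sizes, the median over all tested genes was 0.63 (log2). FKBP4 then stood at 0.35, DDB2 at 0.17, AXIN2 at 0.18, GPS1 at 0.23, FKBP8 at 0.26, UBB at 0.25 and TRIM28 at 0.28, all below that median and of reversed sign. FKBP4 was not called at -0.16 (length trend removed), -0.14 (both trends removed) or -0.30 (replicate block). DDB1 changed sign at -0.068 with upper-quartile normalization, -0.087 with the ERCC factor and -0.019 with the length trend removed. The ERCC factor also lowered the estimates of FKBP5 to 0.02, CSNK1A1 to 0.026, GSPT1 to 0.095 and CUL4A to 0.11, and left FKBP4 called at -0.26. CRBN changed sign at -0.038 with the ERCC factor and -0.056 with both trends removed, with or without the block. CUL4A (0.17) and GSPT1 (0.14) were called with both trends removed and with the block and those trends, RBX1 (0.16) and FKBP4 (-0.14) only with the latter, and FKBP5 (0.21) and GSPT1 (0.21) with the crossed block. Without 1 library, log2 fold changes ranged from 0.022 to 0.16 for CRBN, -0.05 to 0.061 for DDB1, 0.14 to 0.21 for CUL4A, 0.13 to 0.18 for RBX1, -0.33 to -0.26 for FKBP4, 0.10 to 0.32 for FKBP5, 0.13 to 0.29 for GSPT1 and 0.071 to 0.25 for CSNK1A1. The cause of these shifts was not tested.

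Deviations of same-numbered libraries correlated at -0.30 across genes. This value sets the DMSO replicate difference against the dTAG one, so it cannot decide whether the libraries were prepared as pairs. The crossed block was added after seeing it, so the calls of that block follow from a choice made on the same data. The block with both trends removed was also added after seeing the data. By CPM without division by length, FKBP5 took the 3rd place and FKBP4 the 6th. No value came for CRBN, DDB1 and CUL4A when genes that overlap another gene were left out. FKBP1A was not measured at any setting.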
